A study of Mus musculus with 15 samples.

Results

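The genes described here are the nuclear genes of mitochondrial complex I: the gene entries whose symbol begins with Nduf, which were 48 of the 42396 entries of each of 2 count tables. Ndufa4, a subunit of complex IV, and its relative Ndufa4l2 were left out, as were the Ndufs5 pseudogene and the further-locus copies of Ndufs3 and Ndufa7. Complex I, or NADH:ubiquinone oxidoreductase, is the largest enzyme of the respiratory chain. It takes electrons from NADH, passes them along a flavin and a row of iron-sulfur clusters to ubiquinone, and uses the energy to move protons across the inner mitochondrial membrane. It is L-shaped, with an arm in the matrix, made of the NADH-oxidising N module and the ubiquinone-reducing Q module, and an arm in the membrane, and skeletal muscle relies on it for aerobic work.

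By role, the 48 genes held 3 core subunits of the N module, 4 core subunits of the Q module, 9 accessory subunits of the matrix arm, 21 accessory subunits of the membrane arm, 8 assembly factors named Ndufaf and 3 copies (Ndufb4b, Ndufb4c and the transcribed pseudogene Ndufa11b). Core subunits carry the chemistry of the enzyme, accessory subunits surround and stabilise it, and assembly factors help to build it without staying in it. The core subunits of the membrane arm are encoded by the mitochondrial genome and were not analysed here.

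Adult C57BL/6 mice of both sexes were injected in the hindlimb with AAV6, an adeno-associated virus that carries genes into muscle, and RNA of the tibialis anterior (TA), a fast muscle of the lower leg, was sequenced 2 months later. The virus carried LSMEM2 C-del in 4 male and 4 female libraries, and EGFP as the mock control in 4 male and 3 female libraries. LSMEM2 is a leucine-rich membrane protein that crosses the membrane in a single pass, and the labels do not say what C-del stands for. Every animal had thus received virus, no uninjected muscle is among the groups, and neither the promoter in the virus nor the exact age is given in these sources. The labels do not tie libraries to separate animals, and p-values therefore reflect library-to-library spread, which may be technical. Male and female libraries were in separate tables, and an effect of sex cannot be told apart from one of the table.

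Levels are given as CPM, counts scaled to the size of the library, and a gene passed at an adjusted p under 0.05 in edgeR's quasi-likelihood test across all genes of a table. Totals were 15304503 to 17744015 counts in male C-del and 14297620 to 15454510 in male mock libraries, and 10239329 to 12054871 in female C-del and 9285145 to 10790101 in female mock libraries. Lsmem2 itself averaged 1497 ± 806 CPM (SD, n = 4) in male C-del libraries, against 29.2 ± 0.552 CPM (SD, n = 4) in male mock libraries, a log2 fold change of 5.68 ± 0.57 (SE), adjusted p = 0.00223. It averaged 1967 ± 582 CPM in female C-del (SD, n = 4) and 31.2 ± 1.42 CPM in female mock libraries (SD, n = 3), a log2 fold change of 5.98 ± 0.27 (SE), adjusted p = 3.05e-05. The protocol text speaks of hearts, whereas 6 skeletal muscle genes summed to 88926 to 124884 CPM per library and 5 heart genes to 7.23 to 27.2 CPM. Of the heart genes, Nppb was at 0 counts in every library and Myl7 at 0 in every female library.

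Female mock libraries 2 and 3 stood apart from the other female libraries. Summed macrophage markers (15 genes) reached 72.03 to 148 CPM in female C-del libraries and 109, 881 and 415 CPM in female mock libraries 1, 2 and 3, and summed antigen presentation genes (12 genes) 196 to 283 CPM and 260.4, 2399 and 1674 CPM. Summed B and plasma cell markers (6 genes) were 1.21 to 1.56 CPM in C-del libraries and 1.65, 461 and 5.28 CPM in the mock libraries, and no gene of these 3 lists was at 0 in every library. Female mock library 3 also differed by transcript length. Relative to the median of the 7 female libraries, its level on the log2(CPM + 1) scale was higher by a median of 0.41 for 1074 genes with transcripts under 1 kb and lower by a median of 0.32 for 3744 genes of at least 4 kb, whereas the other 6 female libraries deviated by medians between -0.017 and 0.0023 in these 2 classes. Among males, C-del libraries 1 and 2 had 244 and 265 CPM of macrophage markers and C-del libraries 3 and 4 had 72.4 and 95.6 CPM, against 93.1 to 112 CPM in mock libraries. Some male libraries were also alike in pairs. By the mean chi-square per gene between libraries, male C-del libraries 1 and 2 (4.83) and 3 and 4 (4.56) were closest. The other pairs of that group were at 12.1 to 14.7. Male mock libraries 3 and 4 were at 2.62, against 4.59 to 9.49 for the other mock pairs. The 4 libraries of a male group may therefore not be 4 independent units.

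Complex I transcripts were abundant in the TA, and the roles differed in level. Per kb of transcript, which allows genes to be compared, Ndufb8 had the highest mean level over all mock libraries and Ndufb9 the next. Ndufb8 and Ndufb9, accessory subunits of the membrane arm, had 595 and 609 CPM per kb in male C-del libraries, against 584 and 583 in male mock libraries. Ndufb8 and Ndufb9 kept no fixed order, with Ndufb9 higher in male C-del libraries and Ndufb8 higher in female mock libraries. The 8 assembly factors all lay below every subunit: they spanned 9.46 (Ndufaf2) to 29.3 (Ndufaf5) CPM per kb in male C-del libraries. Among the subunits the matrix arm gene Ndufa7 was lowest in the entry used here, at 55.3 CPM per kb in male C-del libraries, but its reads are split over 4 entries that together came to 217; the lowest subunit with a single entry was Ndufv3, at 76.2. Over all mock libraries the 3 lowest genes were Ndufa11b, with 0 to 2 counts per library, Ndufaf7 and Ndufaf4. Ndufaf7, a methyltransferase, had 11.3 CPM per kb in male C-del and 11.03 in male mock libraries.

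**Figure D1:**
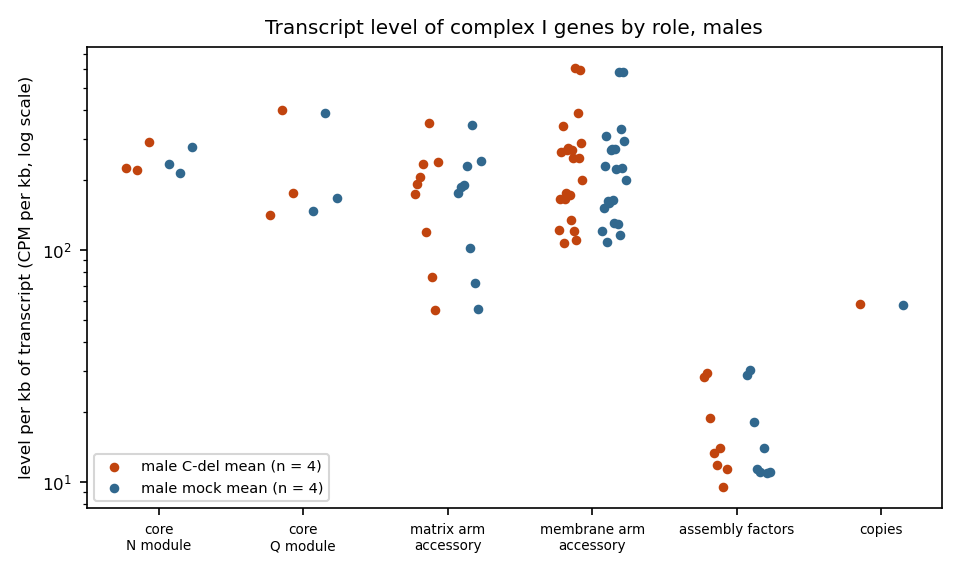
Mean level per kb of transcript in male libraries (log axis), with 1 point per gene drawn, male C-del left of male mock in each role. The 8 assembly factors lie between 9.46 and 30.4 CPM per kb in both groups, below every subunit; Ndufb4b, which had no transcript length, and Ndufa11b, at 0 to 2 counts, are not drawn.

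In males, 5 complex I genes rose in C-del muscle, by 1.12-fold to 1.18-fold, and no complex I gene fell. They were Ndufs4, an accessory subunit that fastens the N module, Ndufb10, Ndufa8 and Ndufb7, accessory subunits of the membrane arm with the paired-cysteine fold of intermembrane space proteins, and Ndufaf4, an assembly factor of the Q module. The 5 were 10.6% of the 47 complex I genes tested, against 5.8% of all 14543 genes tested that passed as higher, 5.37% as lower and 11.2% in either direction. At an unadjusted p under 0.05, 10 complex I genes (21.3%) differed, all of them higher, against 26% of all genes in either direction, and DESeq2 called 6, all of them higher, against 10.4% of all genes. In 10 of 47 complex I genes (21.3%) every C-del library exceeded every mock library, against 9.05% of all genes, and in 0 of 47 every C-del library lay below, against 8.51%. The count of 5 became 3 without male mock library 3, 2 without male mock libraries 3 and 4, and 0 when the spread was taken from all 15 libraries in a joint fit, where 2.49% of all genes passed.

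Across the 47 genes the male changes were small. The median log2 fold change was 0.031 with a median SE of 0.046, against a median of -0.0047 over all genes tested, and the values ran from -0.20 to 0.24. The log2 fold change was above 0 in 30 genes (63.8%), against 49% of all genes, and below 0 in 17 (36.2%), against 51%. Summed over the 48 genes, the level was 9058, 8821, 8932 and 9132 CPM in the male C-del libraries and 8695, 8573, 8677 and 8645 CPM in the male mock libraries. All 4 C-del sums lay above all 4 mock sums, with means of 8986 ± 137 CPM in C-del and 8647 ± 53.5 CPM in mock libraries (SD, n = 4 each). In such bulk RNA, fewer cells of a type and less RNA per cell cannot be told apart. Myh2, the myosin of fast oxidative fibres, was at 2057, 1816, 1452 and 1582 CPM in male C-del libraries, against 1318, 1423, 1500.3 and 1477 CPM in male mock libraries and passed in DESeq2 but not in edgeR (adjusted p = 0.111), and the other 8 slow and oxidative fibre genes summed to 164 to 211 CPM in C-del and 132 to 203 CPM in mock libraries. The 9 genes had a median log2 fold change of -0.02 and none passed in edgeR. Myh2 was at 0.27 ± 0.098 (SE), and Myoz2, which also passed in DESeq2, at 0.73 ± 0.19 (SE). Myh7 was at -0.68 ± 0.61 (SE) and Tnnc1 at -0.51 ± 0.23 (SE). These 2 genes were low, with means of 3.33 and 2.45 CPM in male C-del and 5.39 and 3.48 CPM in male mock libraries. Pericyte and smooth muscle genes (7 genes) summed to 1091 to 1117 CPM in male C-del and 1249 to 1302 CPM in male mock libraries, and 5 of the 7 passed as lower, against 5.37% of all genes. The part of fibre type or of these cells in the complex I sums was not tested.

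**Figure D2:**
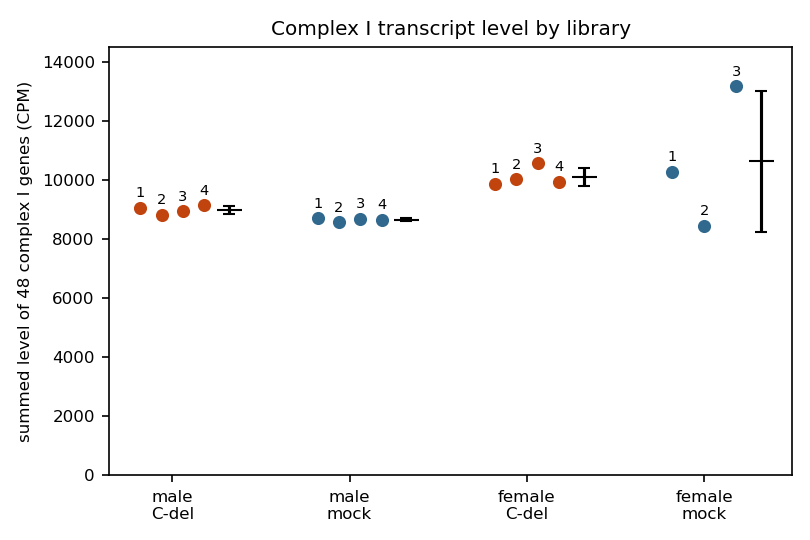
Summed level of the 48 complex I genes (CPM) in each library, numbered, with the group mean and SD beside the points. Male C-del libraries lie at 8821 to 9132 and male mock libraries at 8573 to 8695; female C-del libraries lie at 9875 to 10569, and the female mock libraries spread from 8440 to 13177.

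Ndufs4 is needed to hold the NADH-oxidising module on the enzyme, and mice without it develop a disease like Leigh syndrome. Its level was 207, 206, 196 and 205 CPM in the male C-del libraries, against 172, 163, 184 and 169.9 CPM in the male mock libraries. The groups did not overlap, and the log2 fold change was 0.24 ± 0.046 (SE), adjusted p = 0.00414, or 1.18-fold. It passed under 16 of 17 alternative settings and was lost in the joint fit (adjusted p = 0.212).

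Ndufb10 had 301, 272, 276 and 286 CPM in the male C-del libraries, against 244, 233, 248 and 245 CPM in the male mock libraries. The groups were separate, with a log2 fold change of 0.23 ± 0.045 (SE), adjusted p = 0.0047, and this call too was lost in the joint fit alone of 17 settings (adjusted p = 0.37). Ndufa8 had 228, 219, 227 and 233 CPM in C-del, against 201, 205, 198 and 190.0 CPM in mock libraries. Its groups did not overlap either, the log2 fold change was 0.19 ± 0.042 (SE), adjusted p = 0.00902, and it did not pass in the joint fit or without mock libraries 3 and 4 (adjusted p = 0.142).

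Ndufaf4 acts with Ndufaf3 on the early Q module. It had 46.9997, 47.4, 46.2 and 51.98 CPM in the male C-del libraries, against 42.8, 38.5, 40.9 and 42.8 CPM in the male mock libraries, without overlap, and a log2 fold change of 0.22 ± 0.058 (SE), adjusted p = 0.0229. Ndufb7 had 152, 159, 151 and 160.3 CPM in C-del, against 139, 145, 131 and 139 CPM in mock libraries, again without overlap, and a log2 fold change of 0.17 ± 0.045 (SE), adjusted p = 0.0289. These 2 calls were the least stable of the 5: Ndufaf4 passed under 12 and Ndufb7 under 7 of 17 settings, and leaving out male mock library 3 or male C-del library 4 ended both. Ndufaf4 was also lost without male mock library 2, and Ndufb7 without male mock library 1 or 4 or male C-del library 2.

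**Figure D3:**
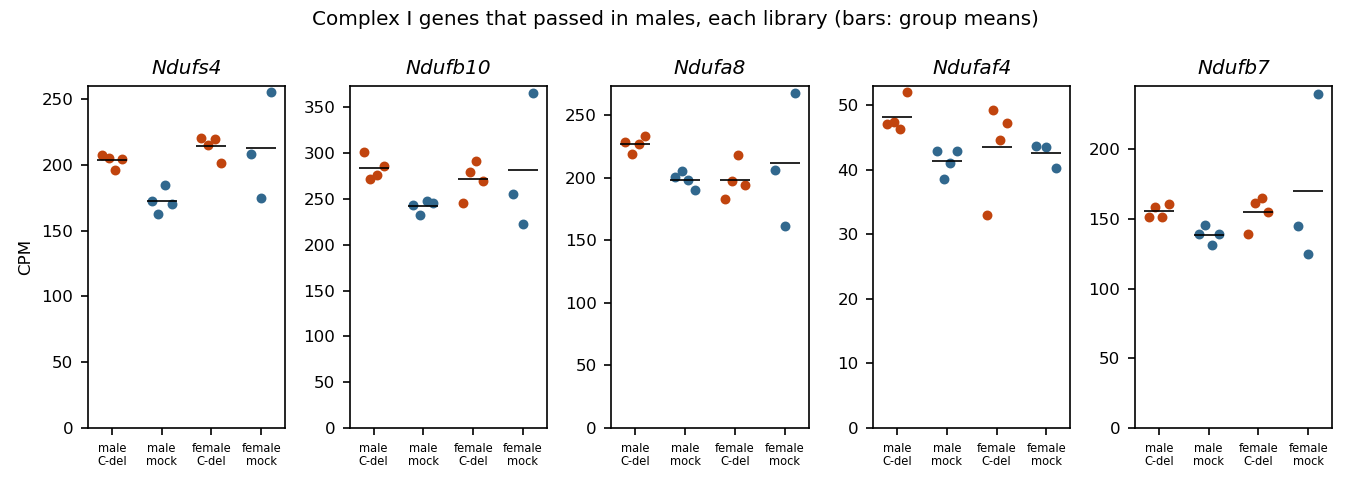
Level (CPM) of the 5 complex I genes that passed in males, with 1 point per library and a bar at the group mean, C-del left of mock in each sex. In males the C-del and mock points do not overlap for any of the 5; in females the mock points span the C-del points for Ndufs4, Ndufb10, Ndufa8 and Ndufb7.

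The 250 bases before the annotated start of these 5 genes are shown because the 5 moved the same way in males, so that their promoters can be read side by side. They are from RefSeq on GRCm38.p6 and run 5′ to 3′ on the strand of the gene. Capitals mark the letters GCATGCG, a core of the site of the respiratory factor NRF1, or CCGGAAG, a core of the site of ETS factors such as GABP, read on both strands.
Ndufs4, chr13:114388095-114388344, minus strand: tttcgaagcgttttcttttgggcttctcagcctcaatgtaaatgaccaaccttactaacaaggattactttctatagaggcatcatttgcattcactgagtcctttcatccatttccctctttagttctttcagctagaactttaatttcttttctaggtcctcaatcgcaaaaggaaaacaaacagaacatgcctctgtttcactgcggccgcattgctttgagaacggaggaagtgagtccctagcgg
Ndufb10, chr17:24724424-24724673, minus strand: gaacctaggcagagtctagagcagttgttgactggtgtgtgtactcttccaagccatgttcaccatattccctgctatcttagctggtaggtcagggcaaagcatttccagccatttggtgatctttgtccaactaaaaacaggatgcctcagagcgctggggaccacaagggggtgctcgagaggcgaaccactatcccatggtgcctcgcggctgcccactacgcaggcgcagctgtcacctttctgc
Ndufa8, chr2:36049339-36049588, minus strand: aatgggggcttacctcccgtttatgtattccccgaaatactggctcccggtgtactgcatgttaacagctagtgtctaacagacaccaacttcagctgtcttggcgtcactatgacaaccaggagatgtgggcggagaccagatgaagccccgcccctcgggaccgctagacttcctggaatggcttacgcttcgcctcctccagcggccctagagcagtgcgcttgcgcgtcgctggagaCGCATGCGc
Ndufaf4, chr4:24897833-24898082, plus strand: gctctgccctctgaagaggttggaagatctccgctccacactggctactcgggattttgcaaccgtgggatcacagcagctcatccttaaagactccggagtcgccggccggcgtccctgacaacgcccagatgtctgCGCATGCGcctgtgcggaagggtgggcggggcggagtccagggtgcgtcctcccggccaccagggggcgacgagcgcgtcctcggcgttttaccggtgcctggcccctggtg
Ndufb7, chr8:83566508-83566757, plus strand: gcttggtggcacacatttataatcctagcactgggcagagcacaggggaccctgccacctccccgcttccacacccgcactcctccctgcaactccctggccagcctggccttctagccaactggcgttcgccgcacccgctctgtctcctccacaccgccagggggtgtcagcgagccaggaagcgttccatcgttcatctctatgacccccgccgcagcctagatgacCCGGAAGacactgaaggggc
In Ndufa8 and Ndufaf4 the NRF1 letters occur on both strands at once, the 2 matches overlapping to give the 8 capitals. Of the 41 complex I genes with a window, 4 (9.76%) held the NRF1 letters, against 3.02% of 32851 windows of all genes, and 5 (12.2%) held the ETS letters, against 6.91%. The letters AAGGTCA of the oestrogen-related receptors occurred in 3 (7.32%), against 4.08%, and ATGGCGG, a YY1 core, in 4 (9.76%), against 2.21%. Neither of these 2 occurred in the windows of the 5 genes, and Ndufs4 and Ndufb10 held none of the 4 motifs. A match is a run of letters and not a measured site.

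The next genes by p in males were Ndufb5, Ndufa11 and Ndufa10, all accessory subunits of the membrane arm. Ndufb5 had 387, 387, 352 and 353 CPM in C-del and 340.4, 320.4, 332 and 339.9 CPM in mock libraries, a log2 fold change of 0.15 ± 0.047 (SE), adjusted p = 0.0546; it did not overlap between groups and passed in DESeq2 (adjusted p = 0.0328). Ndufa11, which sits where the membrane arm meets complex III in supercomplexes, had 139, 125, 139.9 and 138 CPM and 118, 126, 121 and 128 CPM, a log2 fold change of 0.14 ± 0.049 (SE), adjusted p = 0.0789. C-del library 2 lay within the mock range, and without it Ndufa11 passed (adjusted p = 0.0312). Ndufa10, a kinase-like subunit, had 360.3, 328, 322 and 329 CPM and 316, 298, 308 and 308 CPM, a log2 fold change of 0.12 ± 0.046 (SE), adjusted p = 0.105. Its groups did not overlap, but C-del library 1 stood above the other 3.

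The core subunits described here, 3 of the N module and 3 of the Q module, did not pass in males, and none of them had an unadjusted p under 0.05. Their log2 fold changes ran from -0.062 for Ndufs1 to 0.079 for Ndufs8, with adjusted p between 0.255 and 0.596, and DESeq2 also called 0.

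In the N module, Ndufv1, which binds NADH and the flavin, had 496, 471.1, 492 and 480.3 CPM in C-del and 468, 471.5, 443 and 456 CPM in mock libraries. Ndufv2, which carries an iron-sulfur cluster beside the flavin, had 386, 372, 364 and 375 CPM and 363, 333, 385 and 369.5 CPM. Both overlapped between the groups. Ndufs1, the largest subunit with several clusters of the chain, had 580.2, 569, 598 and 587 CPM in C-del and 620.4, 586, 618 and 612 CPM in mock libraries, with 3 of the 4 mock libraries above every C-del library.

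In the Q module, Ndufs7, which holds the last cluster before ubiquinone, had 311, 290.3, 315 and 305 CPM in C-del and 288, 312, 292 and 286 CPM in mock libraries, and Ndufs8, which carries a pair of clusters, had 183, 167, 169 and 173 CPM and 164, 170.0, 159.8 and 162 CPM. Both overlapped. Ndufs3, a structural subunit of the module, had 153, 142, 149 and 150.2 CPM and 159, 147, 156 and 154 CPM, with C-del libraries inside or below the mock range. The table splits its reads evenly over 2 entries; summed over both, Ndufs3 averaged 297 CPM in C-del and 308 CPM in mock libraries, and the log2 fold change stayed at -0.05 (adjusted p = 0.508).

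In males the accessory subunits that differed were higher in C-del muscle. Of 9 in the matrix arm, 1 rose (Ndufs4) and none fell (median log2 fold change 0.031), and of 21 in the membrane arm 3 rose (Ndufb10, Ndufa8 and Ndufb7) and none fell, with a median of 0.027, against 5.8% of all genes that passed as higher. At an unadjusted p under 0.05, 2 of the 9 and 7 of the 21 were higher, against 26% of all genes in either direction. No accessory subunit had an unadjusted p under 0.05 in the lower direction, and DESeq2 called no complex I gene lower. Ndufb9 and Ndufv3 also had every C-del library above every mock library, at 419 to 438 against 402 to 417 CPM for Ndufb9 and 118 to 123 against 111 to 115 CPM for Ndufv3, an accessory subunit of the N module; neither passed, and both were picked out after their values were seen. Ndufa7 was split over 4 entries, with 28.3 to 29.8 CPM in C-del and 28.9 to 29.5 CPM in mock libraries for the entry used and 114 and 115 CPM for the means of the 4 summed.

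Among the 8 Ndufaf assembly factors, 1 rose in males (Ndufaf4), 0 fell in edgeR or DESeq2, and the median log2 fold change was 0.015. Of all genes, 5.8% passed as higher and 11.2% in either direction in edgeR. Ndufaf3, the partner of Ndufaf4, had 18.9, 16.5, 16.3 and 18.4 CPM in C-del and 16.9, 17.04, 15.6 and 15.7 CPM in mock libraries, which overlap. Ndufaf1, a member of the complex that assembles the membrane arm, had 39.1 to 42.9 CPM in C-del and 40.2 to 43.1 CPM in mock libraries. Ndufaf2, which holds the place of Ndufa12 until a late step, was the lowest by counts (70 to 131 per library), with 7.09, 7.2, 4.69 and 6.69 CPM in C-del and 8.28, 6.84, 6.48 and 8.06 CPM in mock libraries. C-del library 3 was its lowest, and the other libraries overlapped.

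Ndufaf5, which hydroxylates an arginine of Ndufs7, had 35.3, 29.4, 34.2 and 37.9 CPM in male C-del libraries, against 36.4, 33.1, 35.6 and 36.7 CPM in male mock libraries. Its partner Ndufaf8 had 10.5 to 11.6 CPM and 9.48 to 12.7 CPM, Ndufaf6 had 18.4 to 21.6 CPM and 17.9 to 21.8 CPM, and Ndufaf7 had 19.6 to 20.002 CPM and 18.6 to 20.1 CPM. All 4 overlapped between the groups. The copies Ndufb4b and Ndufb4c, at 18.3 to 19.6 CPM and 21.6 to 23.5 CPM in C-del and 18.3 to 20.6 CPM and 21.7 to 24.4 CPM in mock libraries, are near-identical to Ndufb4, and how reads were shared between the 3 is uncertain.

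**Figure D4:**
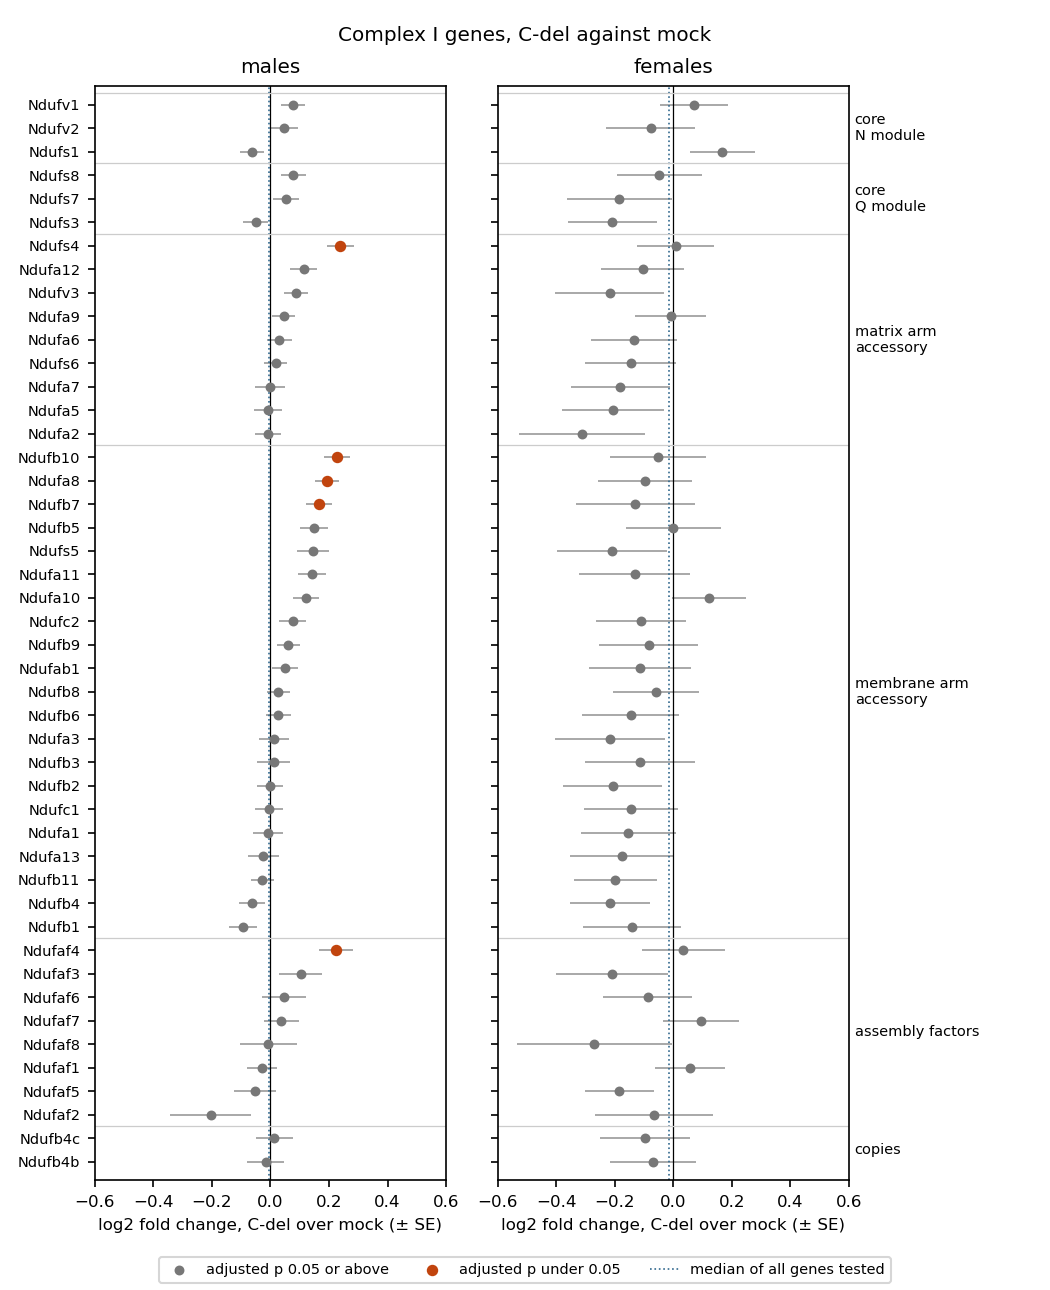
Log2 fold change of C-del over mock (± SE) for 46 of the 47 complex I genes tested, by role, in males (left) and females (right), with genes that passed in orange and the median of all genes as a dotted line. In males 5 genes pass and the values run from -0.20 to 0.24; in females none pass, the values run from -0.31 to 0.17 and the SE is wider.

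In females no complex I gene passed in edgeR. None of the 47 tested had an unadjusted p under 0.05, against 11.9% of all genes, DESeq2 also called 0 of the 47 (2.65% of all genes), and so did the joint fit (5.09% of all genes). Only 0.0141% of the 14220 genes tested passed in edgeR, so a call was rare for any gene. The log2 fold change was below 0 in 39 genes (83%), against 52.4% of all genes, with a median of -0.11 and a median SE of 0.16, against a median of -0.015 over all genes. In 0 of 47 genes did every C-del library lie above every mock library, and in 0 of 47 below, against 5.71% and 4.39% of all genes.

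The female median moved with single mock libraries. Without female mock library 3 it became 0.10, with 41 of 47 genes above 0, and without female mock library 2 it became -0.26, with 11 genes at an unadjusted p under 0.05 and 0 passing. With both left out it was -0.026, with 14 of 47 genes above 0, and with each library's trend on transcript length removed it was 0.042, with 32 genes above 0. The summed level was 9875, 10014, 10569 and 9933 CPM in the female C-del libraries and 10282, 8439.6 and 13177 CPM in female mock libraries 1, 2 and 3, so the 4 C-del sums lay within the mock range. Mock library 3 was the highest of the 7 libraries for 42 of the 47 genes and mock library 2 the lowest for 42. These are the libraries with raised immune markers, and the part of those cells in the levels was not tested.

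The deviation of mock library 3 followed transcript length in complex I genes as it did in all genes. On the log2(CPM + 1) scale it was above the median of the 7 female libraries by a median of 0.54 for the 26 genes with transcripts under 1 kb and of 0.27 for the 20 longer ones. Mock library 2 was below that median by 0.23 for the shorter and 0.26 for the longer genes, which is nearly the same, whereas over all genes it deviated by -0.017 under 1 kb and 0.002 at 4 kb or more. Single genes varied around these medians. Ndufs1, with a transcript of 2590 bases, was 769, 729.9, 779 and 745 CPM in C-del and 776, 625 and 617 CPM in mock libraries, and it was lowest in mock library 3. Ndufa10, with a transcript of 2020 bases, was at 334 CPM in mock library 3, its highest value of the 7 female libraries.

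**Figure D5:**
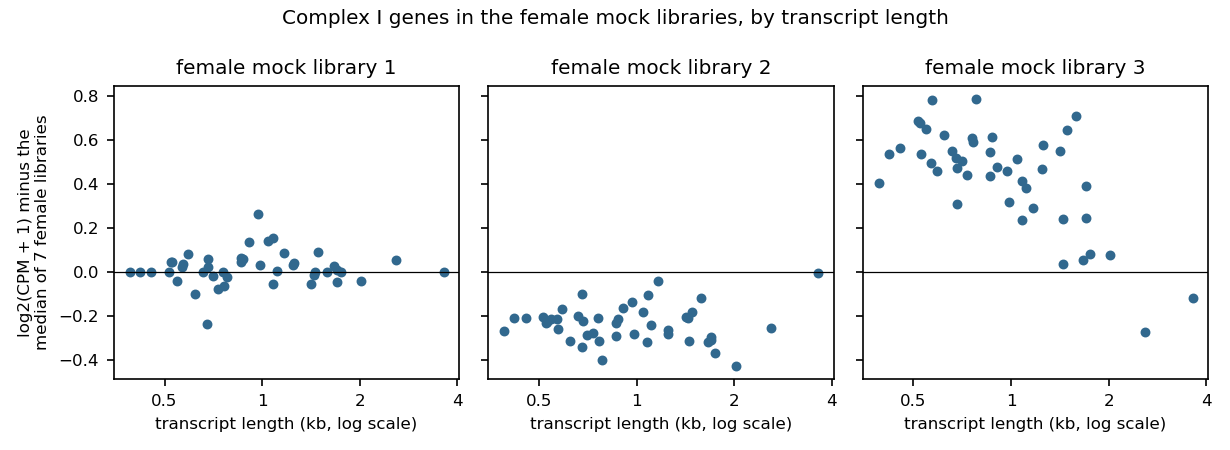
Level of each complex I gene in the 3 female mock libraries, as log2(CPM + 1) minus the median of the 7 female libraries, against transcript length (kb, log axis), with 1 point per gene drawn. The medians are over all complex I genes with a length. Library 1 lies around 0, library 2 lies at a median of -0.23 (under 1 kb) and -0.26 (1 kb and longer), and in library 3 shorter genes lie higher, with medians of 0.54 and 0.27.

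By p, the 8 leading genes in females were Ndufb4, Ndufaf5, Ndufs1, Ndufa2, Ndufs3, Ndufb11, Ndufb2 and Ndufa5, none of which passed (adjusted p between 0.569 and 0.667). Ndufb4, a membrane arm subunit, had 141, 144, 142 and 149.5 CPM in C-del and 173, 131 and 198 CPM in mock libraries, a log2 fold change of -0.22 ± 0.14 (SE), adjusted p = 0.569. Ndufaf5 had 39.99, 35.1, 42.4 and 41.5 CPM and 44.2, 40.4 and 51.05 CPM, a log2 fold change of -0.18. In both, mock library 3 was the highest and the C-del libraries overlapped the mock range.

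Ndufa2, a matrix arm subunit with a thioredoxin-like fold, had the most negative value: 160.3, 173, 184 and 181 CPM in C-del and 186, 151 and 312 CPM in mock libraries, a log2 fold change of -0.31. Its level in mock library 3 stood far above the other 6, and without that library the log2 fold change was 0.047. Ndufs3 had 161, 164, 166 and 156 CPM and 182, 145 and 235 CPM (log2 fold change -0.21), and Ndufb11, an X-linked membrane arm subunit, had 348, 333, 349 and 339.9 CPM and 382, 310.1 and 485 CPM (log2 fold change -0.20). Both again had mock library 3 highest and mock library 2 lowest.

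Ndufb2, of the membrane arm, had 153, 159.8, 161 and 145 CPM in female C-del and 160.1, 138 and 237 CPM in female mock libraries (log2 fold change -0.21), and Ndufa5, of the matrix arm, had 198, 195, 209 and 185 CPM and 206, 171 and 303 CPM (log2 fold change -0.21). Without mock library 3 they were at 0.051 and 0.059. Ndufs1 was the gene with the most positive value, 0.17, which became -0.035 with mock libraries 2 and 3 left out.

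The 5 genes that rose in males were not called in females. Ndufs4 had 220.2, 215, 219.9 and 202 CPM in female C-del and 209, 175 and 255 CPM in female mock libraries, a log2 fold change of 0.0083 ± 0.13 (SE), adjusted p = 0.985. Ndufb10 had 245, 279.8, 291 and 269.6 CPM and 256, 223 and 366 CPM (-0.053 on the log2 scale), and Ndufa8 had 183, 197, 218 and 194 CPM and 206, 161 and 268 CPM (-0.10). In these 3 genes the C-del libraries lay within the range of the mock libraries. Ndufb7 had 139, 161, 165 and 155 CPM in C-del and 145, 125 and 239.5 CPM in mock libraries (-0.13), and Ndufaf4 33.01, 49.2, 44.6 and 47.2 CPM and 43.7, 43.5 and 40.3 CPM (0.034). Without mock library 3, Ndufb10, Ndufa8 and Ndufb7 were at 0.18, 0.11 and 0.20 and still did not pass.

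The other core subunits described gave the same picture in females. Ndufv1 had 530.3, 546, 571 and 541 CPM in C-del and 558, 438 and 568 CPM in mock libraries, and Ndufv2 had 365, 359, 389 and 377 CPM and 379, 304 and 495 CPM. Ndufs7 had 277, 305, 326 and 311 CPM and 306, 265 and 468 CPM, and Ndufs8 162, 163, 193 and 173 CPM and 177, 142 and 216 CPM. In all 4, mock library 2 was the lowest library, and the C-del libraries lay within or close to the mock range. Of the other assembly factors, Ndufaf1 had 46.9 to 54.4 CPM in C-del and 41.3 to 52.8 CPM in mock libraries, Ndufaf3 15.98 to 18.8 and 14.5 to 26.4 CPM, Ndufaf6 16.4 to 24.2 and 18.2 to 23.3 CPM, and Ndufaf7 20.3 to 20.9 and 15.7 to 21.8 CPM. Ndufaf2 had 9.57 to 11.005 CPM in C-del and 8.12 to 14.4 CPM in mock libraries, and Ndufaf8 10.3 to 12.9 and 9.3 to 22.4 CPM. The groups overlapped for each of these 6.

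Fibre type markers were uneven between the female groups. Myh2 had 3743, 5489, 5430.2 and 4603 CPM in female C-del libraries and 1875, 1563 and 2480.0 CPM in female mock libraries, without overlap, a log2 fold change of 1.29 ± 0.19 (SE), adjusted p = 0.0775. The other 8 slow and oxidative fibre genes summed to 413 to 678 CPM in C-del and 279.9 to 384 CPM in mock libraries. Of the 9, 3 had an unadjusted p under 0.05, none passing in edgeR and 3, all higher, in DESeq2 (Myh2, Myl3 and Myoz2). Of all genes, 11.9% had an unadjusted p under 0.05 and 2.65% passed in DESeq2, in either direction. The median log2 fold change of the 9 was 0.06. Within the list, Myh7, Tnni1, Tnnt1 and Tnnc1 were at -0.28, -0.50, -0.48 and -0.59, none of them with an unadjusted p under 0.05. Myoz2, Myl3, Myl2 and Atp2a2 were above 0, as Myh2 was, at 1.07, 1.02, 0.59 and 0.06. The part of fibre type in the complex I levels was not tested.

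The effect of C-del in females minus that in males was tested in the joint fit of 15 libraries, and no complex I gene passed in it. Of all 15272 genes, 0.354% passed; among the 47 complex I genes none had an unadjusted p under 0.05, against 16.9% of all genes, and DESeq2 called 0 with 1 at an unadjusted p under 0.05. The difference was below 0, that is, lower in females, in 43 genes (91.5%), against 51.7% of all genes, with a median of -0.16. These values moved with single female mock libraries. Without mock library 3, 10 of 47 were below 0 and the median was 0.064. Without mock library 2, 45 were below 0, the median was -0.31 and 31 had an unadjusted p under 0.05, with 0 passing. Without both, 42 were below 0 and the median was -0.067, and with the length trend removed 17 were below 0 and the median was 0.021. A gene called in males and not in females is therefore not shown to differ between the sexes.

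The 3 genes with the smallest p for the difference were Ndufs1, Ndufs5 and Ndufa8. Ndufs1 had a log2 fold change of 0.17 in females and -0.062 in males, a difference of 0.23 ± 0.11 (SE), adjusted p = 0.297 in the joint fit; without female mock library 1 it passed (0.35, adjusted p = 0.0137). Ndufs5, a membrane arm subunit with paired cysteines, had 113, 113, 118 and 109.9 CPM in female C-del and 117, 96.3 and 181 CPM in female mock libraries. In males it had 89.6, 84.7, 94.5 and 101 CPM in C-del and 85.1, 82.1, 83.6 and 84.03 CPM in mock libraries. Its difference was -0.36 ± 0.20 (SE), adjusted p = 0.373, and that of Ndufa8 was -0.30 ± 0.17 (SE), adjusted p = 0.379; without female mock library 3 they were -0.046 and -0.08.

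Of 49 genes tested that build or control complex I, in 4 lists, 8 passed in males (16.3%), against 11.2% of all genes, 6 as higher and 2 as lower, and edgeR called none of them in females. Of 13 further assembly factors tested, 2 rose in males and 0 fell (median log2 fold change 0.0058). Dmac2, a factor of the distal membrane arm, had 53.1, 45.6, 53.9 and 51.98 CPM in male C-del libraries, against 42.9, 40.1, 43.3 and 38.7 CPM in male mock libraries, a log2 fold change of 0.31 ± 0.063 (SE), adjusted p = 0.00611. Timmdc1, which acts on the membrane arm next to the Q module, had 44.5, 43.8, 41.8 and 42.2 CPM and 35.9, 37.7, 34.3 and 38.96 CPM, a log2 fold change of 0.23 ± 0.056 (SE), adjusted p = 0.0159. Neither overlapped between the groups, and both were lost in the joint fit and without male mock libraries 3 and 4, Timmdc1 also without mock library 3 alone.

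Of 16 genes that make or deliver iron-sulfur clusters, 1 rose and 1 fell in males (median log2 fold change 0.032), against 11.2% of all genes in either direction. Isca2, a late carrier of clusters, had 26.7, 25.2, 27.8 and 25.9 CPM in male C-del libraries, against 21.6, 20.9, 22.7 and 24.4 CPM in male mock libraries, a log2 fold change of 0.24 ± 0.064 (SE), adjusted p = 0.029, and passed under 8 of 17 settings. Iscu, the scaffold on which clusters are built, fell, with 97.4, 100.4, 102 and 99.02 CPM in C-del and 111, 116, 109 and 114 CPM in mock libraries, a log2 fold change of -0.18 ± 0.043 (SE), adjusted p = 0.016, and passed under 12 of 17 settings. The groups did not overlap for either.

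Of 14 transcriptional regulators of mitochondrial genes, 2 rose in males and 0 fell (median log2 fold change 0.07), against 11.2% of all genes in either direction. Ppargc1b, a coactivator of mitochondrial genes, had 31.7, 32.8, 30.4 and 27.4 CPM in male C-del libraries, against 17.9, 20.5, 22.04 and 21.04 CPM in male mock libraries, a log2 fold change of 0.59 ± 0.076 (SE), adjusted p = 0.000224, and passed under all 17 settings. Esrra, a nuclear receptor that works with it, had 157, 146, 155 and 159.8 CPM and 131, 142, 125 and 129 CPM, a log2 fold change of 0.23 ± 0.049 (SE), adjusted p = 0.00902, and was lost in the joint fit and without male mock libraries 3 and 4. Both were without overlap. Ppargc1a, the relative of Ppargc1b, had 72.5, 75.4, 127 and 128 CPM in male C-del libraries, against 139, 115, 141 and 121 CPM in male mock libraries and did not pass. It was low in C-del libraries 1 and 2, those with raised macrophage markers. The skeletal muscle gene Myh4 was also lowest there, at 30220 and 28661 CPM, against 38772 and 41682 CPM in C-del libraries 3 and 4. A link of Ppargc1a to either was not tested.

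In females none of these regulators passed in edgeR, 4 had an unadjusted p under 0.05, all higher in C-del, and DESeq2 called 1, Ppargc1b. Of all genes, 11.9% had an unadjusted p under 0.05 and DESeq2 called 2.65%, in either direction. Ppargc1b had 46.3, 43.7, 41.2 and 49.3 CPM in female C-del and 33.4, 27.6 and 20.2 CPM in female mock libraries, a log2 fold change of 0.73 ± 0.16 (SE), adjusted p = 0.152. The groups did not overlap. Ppargc1a did not pass in males, at a log2 fold change of -0.36 ± 0.23 (SE), adjusted p = 0.4 in edgeR. It had 40.5, 53.2, 59.0 and 53.7 CPM in female C-del and 43.5, 36.5 and 31.8 CPM in female mock libraries. Its female log2 fold change was 0.47 ± 0.16 (SE), adjusted p = 0.265. The female minus male difference was 0.82 ± 0.28 (SE), adjusted p = 0.142. Of 6 matrix and inner membrane proteases and chaperones, 1 rose and 1 fell in males: Afg3l2, an inner membrane protease, had 122, 125, 124 and 121 CPM in male C-del libraries, against 108, 106, 102 and 103 CPM in male mock libraries (log2 fold change 0.23 ± 0.042 (SE), adjusted p = 0.00265). Clpx, the unfoldase of a protease known to turn over the N module, had 72.3, 70.2, 67.1 and 66.98 CPM and 80.5, 78.5, 79.8 and 77.4 CPM (log2 fold change -0.19 ± 0.046 (SE), adjusted p = 0.0159). Neither overlapped between the male groups. Of all genes, 11.2% passed in males in either direction. In females edgeR called 0 of the 13 assembly factors, 16 iron-sulfur genes and 6 proteases and chaperones, with 0, 1 and 0 at an unadjusted p under 0.05, and DESeq2 called 0.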

How the data were processed

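The authors deposited 1 table per sex, whose values are expected counts (estimated counts that need not be whole) per gene, made with featureCounts 2.0.0 on GRCm38.p6 per the submitters' processing notes. Aligner, counting options and strand setting: not given in the sources used here, so overlapping genes and near-identical copies are uncertain. Per the labels' protocols, libraries came from a stranded mRNA kit. Between 14.6% and 17.3% of the deposited values per library were not whole within 0.001, and 25 of the 48 complex I genes had such values. The design had assumed whole counts, and values were rounded before testing.

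Genes were kept with filterByExpr (minimum count 10), scaled with TMM and tested with the robust quasi-likelihood test of edgeR 4.0.16 (limma 3.58.1, R 4.3.3) with Benjamini-Hochberg adjustment over all genes of a table. The test was also run on simulated counts with known changes, drawn as independent libraries around 1 mean per gene. That simulation held no alike pairs, raised immune genes or length trend, so it cannot show how the test behaves with them. Each sex was fitted alone, and the female minus male difference in 1 fit of all 15 libraries. The SE is the ratio of the log2 fold change to the square root of its F statistic. CPM is the rounded count over the TMM-scaled library size. Ndufa11b was too low to be tested. Depths were 9285145 to 17744015 counts per library, and complex I genes tested had at least 70 counts in every library.

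Columns were matched to samples by title for females and to the group alone for males, whose library numbers are column numbers. Transcript lengths are those of GENCODE vM21 principal transcripts, found for 47 of the 48 genes, and promoter windows those of RefSeq on GRCm38.p6, found for 41. Alternatives were DESeq2 1.42.0, RLE size factors, no filter on low counts, leaving out libraries, the joint fit and the female replicate number as a block; chosen after seeing the data were the male column number as a block, the removal of a loess trend (span 0.5) on transcript length, the sum of split entries and the difference without female mock libraries 2 and 3.

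The members, the lists and the tests were chosen with earlier results of these data known. By the rule for named genes, those that passed are named, then the smallest p up to 8 in each sex, the 7 nuclear core subunits, the Ndufaf genes, the 3 highest and 3 lowest levels per kb and the 3 smallest p for the difference; of the other lists, up to 3 genes by p in males. Myh2, Ppargc1a and the female values of Ppargc1b were added after their values were seen, and 1 gene that the rule names is not reported here. Plots were drawn with Python 3.11.15, pandas 2.3.3, numpy 2.4.6 and matplotlib 3.10.9.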

Additional observations from a re-analysis of the deposited data

Results flagged for a closer look

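In 7 of 96 sets of 4 libraries tested, 1 library lay far from the other 3, where chance gives about 1 in 20. Ndufa11 was at 125.3 CPM in male C-del library 2, against 138.3 to 139.9 CPM in the other male C-del libraries. Ndufa5 was at 161.9 CPM in male C-del library 4, against 149.1 to 151.1 CPM in the other 3. Ndufa2 was at 141.5 CPM in male mock library 2, against 136.7 to 137.4 CPM in the other male mock libraries. Ndufaf2 was at 11 CPM in female C-del library 1, against 9.571 to 9.806 CPM in the other female C-del libraries, and Ndufaf8 was at 10.28 CPM in female C-del library 4, against 12.6 to 12.88 CPM. The pseudogene Ndufa11b was at 0.1342 CPM in male mock library 2 and at 0.2015 CPM in female C-del library 4, and at 0 in the other 3 libraries of each group. At 0 to 2 counts, any 1 library above 3 at 0 is flagged, so the rate of 1 in 20 does not apply to this gene.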

How the results depend on the processing

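The 5 male complex I calls became 2 without male mock libraries 3 and 4 and 0 in the joint fit (2 at an unadjusted p under 0.05), where all male calls fell to 767 and 380 genes. Leaving out 1 library gave 3 (without mock library 3) to 6 complex I calls; DESeq2 gave 6, of which 5 are shared with edgeR, and RLE scaling, no filter, summed entries and length correction gave 4 or 5. Over 15 male genes and 17 settings, 231 of 255 values kept direction and call, 19 lost the call, 5 gained it and 0 changed sign. In females no setting gave a complex I call, whereas the count over all genes, 2 at the settings used, was 377 with DESeq2, 16 without the filter, 777 in the joint fit, 15 with the length trend removed, 4 without mock libraries 2 and 3, and 1 (without mock library 3) to 1050 (without mock library 1) with 1 library left out. Lsmem2 kept its direction throughout and missed the threshold without male mock libraries 3 and 4 (5.66, adjusted p = 0.0586) and without female mock libraries 2 and 3 (6.00, adjusted p = 0.226), with fewer samples in both.

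For the female minus male difference, DESeq2 called 656 genes and leaving out 1 library gave 10 (without female C-del library 2) to 1817 (without female mock library 1), with 0 complex I genes except Ndufs1 (1) without female mock library 1. None of the female genes named passed, and 9 of 13 changed sign under some setting. Leaving out 1 library spanned -0.12 to 0.16 for Ndufs4, -0.20 to 0.18 for Ndufb10, -0.26 to 0.11 for Ndufa8, -0.0301 to 0.14 for Ndufaf4, -0.31 to 0.20 for Ndufb7, -0.52 to 0.047 for Ndufa2, -0.36 to 0.051 for Ndufb2 and -0.38 to 0.059 for Ndufa5. Without mock libraries 2 and 3, Ndufb10 was at 0.089, Ndufb7 at 0.10, Ndufaf4 at -0.0038 and Ndufs1 at -0.035. With the length trend removed, Ndufb10 was at 0.13, Ndufa8 at 0.069 and Ndufb7 at 0.067. The cause was not tested. In females the replicate numbers did not pair the libraries (same-number correlations of -0.178, -0.0123 and -0.0678); with the replicate block 2 genes passed, 0 of complex I, the median was -0.076 and Ndufaf4 was at -0.024. The numbers in the male column names did not pair the libraries either (correlations of -0.0229, -0.0442, -0.088 and 0.0169); with the male replicate block, 1162 genes and 4 complex I genes passed, and Ndufb7 was lost (adjusted p = 0.0517). Without female mock libraries 2 and 3, 1 mock library is left, whose spread is taken from the C-del group. The lowest counts behind a tested complex I gene, 70 to 131 for Ndufaf2, limit that gene most.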

Other observations

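Pericyte and smooth muscle markers were lower in male C-del muscle: 5 of the 7 genes passed as lower in edgeR and all 7 had an unadjusted p under 0.05, with a median log2 fold change of -0.27. Of all genes, 5.37% passed as lower and 26% had an unadjusted p under 0.05 in either direction. Kcnj8, a potassium channel subunit of pericytes, was at -0.41 ± 0.072 (SE), adjusted p = 0.00238. In females 0 of the 7 passed and 2 had an unadjusted p under 0.05, both higher, against 11.9% of all genes in either direction. For the female minus male difference 0 of the 7 passed and 6 had an unadjusted p under 0.05, all above 0, with a median of 0.40. Of all genes, 16.9% had an unadjusted p under 0.05 for the difference in either direction. The 7 genes summed to 1091 to 1117 CPM in male C-del and 1249 to 1302 CPM in male mock libraries, without overlap, and to 1006 to 1111 CPM in female C-del and 839 to 981 CPM in female mock libraries, also without overlap but in the other direction. Endothelial genes (7 genes) summed to 397 to 426 CPM in male C-del and 394 to 415 CPM in male mock libraries, and to 385 to 404 CPM in female C-del and 309.6 to 342 CPM in female mock libraries. Tendon genes (8 genes) were at 199 to 337 CPM in male C-del and 322 to 510.5 CPM in male mock libraries, with the highest value in mock library 3, and at 196 to 410.3 CPM and 167 to 305 CPM in females.

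Schwann cell genes (5 genes) summed to 102 to 113 CPM in male C-del and 101 to 149 CPM in male mock libraries and overlapped in females too, at 86.3 to 139 CPM and 84.6 to 129 CPM. Satellite cell genes (3 genes) were at 3.004 to 3.74 CPM and 3.54 to 4.85 CPM in males and at 1.79 to 3.13 CPM and 2.31 to 3.51 CPM in females. Adipocyte genes (6 genes) were at 25.6 to 35.4 CPM and 27.1 to 93.2 CPM in males, highest in mock library 3, and at 25.2 to 109.6 CPM and 29.1 to 73.3 CPM in females. T and NK cell markers (6 genes) stayed at or under 0.614 CPM in male libraries and summed to 0.092 to 0.302 CPM in female C-del and 0.549, 34.3 and 8.8 CPM in female mock libraries 1, 2 and 3.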
